A study of Mus musculus with 24 samples.

Results

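The matrix proteases and their inhibitors were followed through skeletal muscle in which the reprogramming factors Oct4, Sox2, Klf4 and c-Myc (OSKM, or 4F) were switched on. The 84 members are the genes whose symbols begin with Mmp, Timp, Adamts or Adam followed by the family's number, out of 24537 genes in the table of counts. They comprise 23 Mmp genes, 4 Timp genes, 19 Adamts genes, 5 Adamts-like (Adamtsl) genes and 33 Adam genes. The rule used symbols alone, though earlier results of these data were known when it was set. RNA came from whole extensor digitorum longus (EDL, fast-twitch) and soleus (SOL, slow-twitch) muscles of mice aged 2 months. Acta1-Cre+/4Fhet mice (Cre+) were compared with Acta1-Cre-/4Fhet mice (Cre-), and mice of both genotypes carried the 4F cassette and drank water with 1 mg/ml doxycycline (Dox) for 2.5 days, 5.5 days or 8.5 days. Each muscle, genotype and time point had 2 libraries, which makes 24 libraries. Acta1-Cre removes the stop in front of the rtTA activator in myofibers, so OSKM is induced in the fibres of Cre+ mice, whereas the RNA is that of every cell in the muscle. In such bulk RNA, fewer cells of a type and less RNA per cell cannot be told apart.

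Each myofiber is wrapped in a basal lamina of laminins, type IV collagen, nidogens and perlecan, and satellite cells lie between this sheet and the fibre. Matrix metalloproteinases (Mmp) cleave these proteins and the fibrillar collagens around them, either as secreted enzymes or anchored in the cell membrane, and tissue inhibitors of metalloproteinases (Timp) block them. Adamts enzymes are secreted proteases that cut proteoglycans or trim procollagens, Adamts-like proteins resemble them but lack the protease domain, and Adam proteins are membrane-anchored proteases that shed the outer parts of other membrane proteins, some of them without a working catalytic site.

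Depth ranged from 36088781 to 53041969 total counts at 2.5 and 8.5 days (16 libraries) and from 37834210 to 54679082 at 5.5 days (8 libraries). The level of Pou5f1, which encodes Oct4, checked the labels. It was 17.5 to 76.2 FPKM (counts scaled to exon length and to the total count of the library) in Cre+ EDL libraries of 2.5 and 8.5 days, 5.02 to 12.2 FPKM in Cre+ SOL libraries, and 0 to 0.0896 FPKM in Cre- libraries. At 5.5 days the Cre+ EDL libraries held 1.02 and 27.7 FPKM and the Cre+ SOL libraries 0.0786 and 0.387 FPKM. The SOL library with 0.0786 FPKM thus lay within the range given for Cre- libraries. The study treated samples that lacked OSKM overexpression as outliers and left them out, and its RNA-seq results describe 2.5 and 8.5 days only. The genes that define myofibres (Acta1, Ckm and Des among them), of which 11 were listed, were detected in both muscles. Liver transcripts such as Alb stood apart in Cre- libraries of 8.5 days, with 6.40 and 43.8 FPKM in SOL and 2.44 and 3.68 FPKM in EDL, against at most 0.483 FPKM in the Cre+ libraries of that day.

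Of the 84 members, 57 passed the filter on low counts and were tested at 2.5 and 8.5 days. These were 15 Mmp, 4 Timp, 19 Adamts, 5 Adamtsl and 14 Adam genes. The other 27 reached at most 16 counts in any library, and 15 of them had no count in any library, among them the collagenase genes Mmp1a and Mmp1b, matrilysin (Mmp7), the enamel protease Mmp20 and 11 Adam genes. A count of 0 in a library still allows up to 3 counts, which is 0.0549 to 0.0831 CPM (counts scaled to the library total) at these depths and covers counting error only.

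In control EDL muscle the inhibitors Timp2 and Timp3 were the most abundant members. Timp2, which also takes part in the activation of Mmp2, had a mean of 53.0 FPKM over the 4 Cre- EDL libraries of 2.5 and 8.5 days, Timp3, which is bound to the matrix, 52.6 FPKM, Timp4 23.9 FPKM and Timp1 3.04 FPKM. Among the Mmp genes the highest was the gelatinase Mmp2 with 35.2 FPKM, followed by the membrane-type enzymes Mmp14 with 10.6 FPKM and Mmp15 with 7.13 FPKM. The other gelatinase, Mmp9, was at 0.139 FPKM. The Adamts family was led by proteins without a protease domain, Adamtsl4 (25.5 FPKM) and Adamtsl5 (21.4 FPKM), with Adamts1 as the highest protease at 7.96 FPKM. Among the Adam genes Adam9 had 20.3 FPKM, Adam15 11.5 FPKM and Adam17, the sheddase of tumour necrosis factor, 7.19 FPKM.

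The first question was how OSKM in myofibers moved these genes in EDL muscle. A change is called here where the adjusted p of edgeR's quasi-likelihood test (Benjamini-Hochberg over all genes tested) was under 0.05 and the log2 fold change was over 0.5 in size. Folds were fitted after TMM scaling, which FPKM values do not carry, so the ratio of 2 FPKM values can lie above the fitted fold. At 2.5 days 7 of 57 members rose and 5 fell, that is 21.1% of them, while 24% of all 15372 genes tested were called (13.8% higher and 10.2% lower). At 8.5 days 3 rose and 0 fell, 5.26% of the members against 14.1% of all genes (7.63% higher and 6.5% lower). The share of members called was thus no higher than that of all genes, and their median log2 fold change was -0.14 at 2.5 days and 0.12 at 8.5 days, beside -0.05 and -0.02 for all genes. Adam15, Timp1 and Mmp15 were called higher at both time points.

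**Figure D1:**
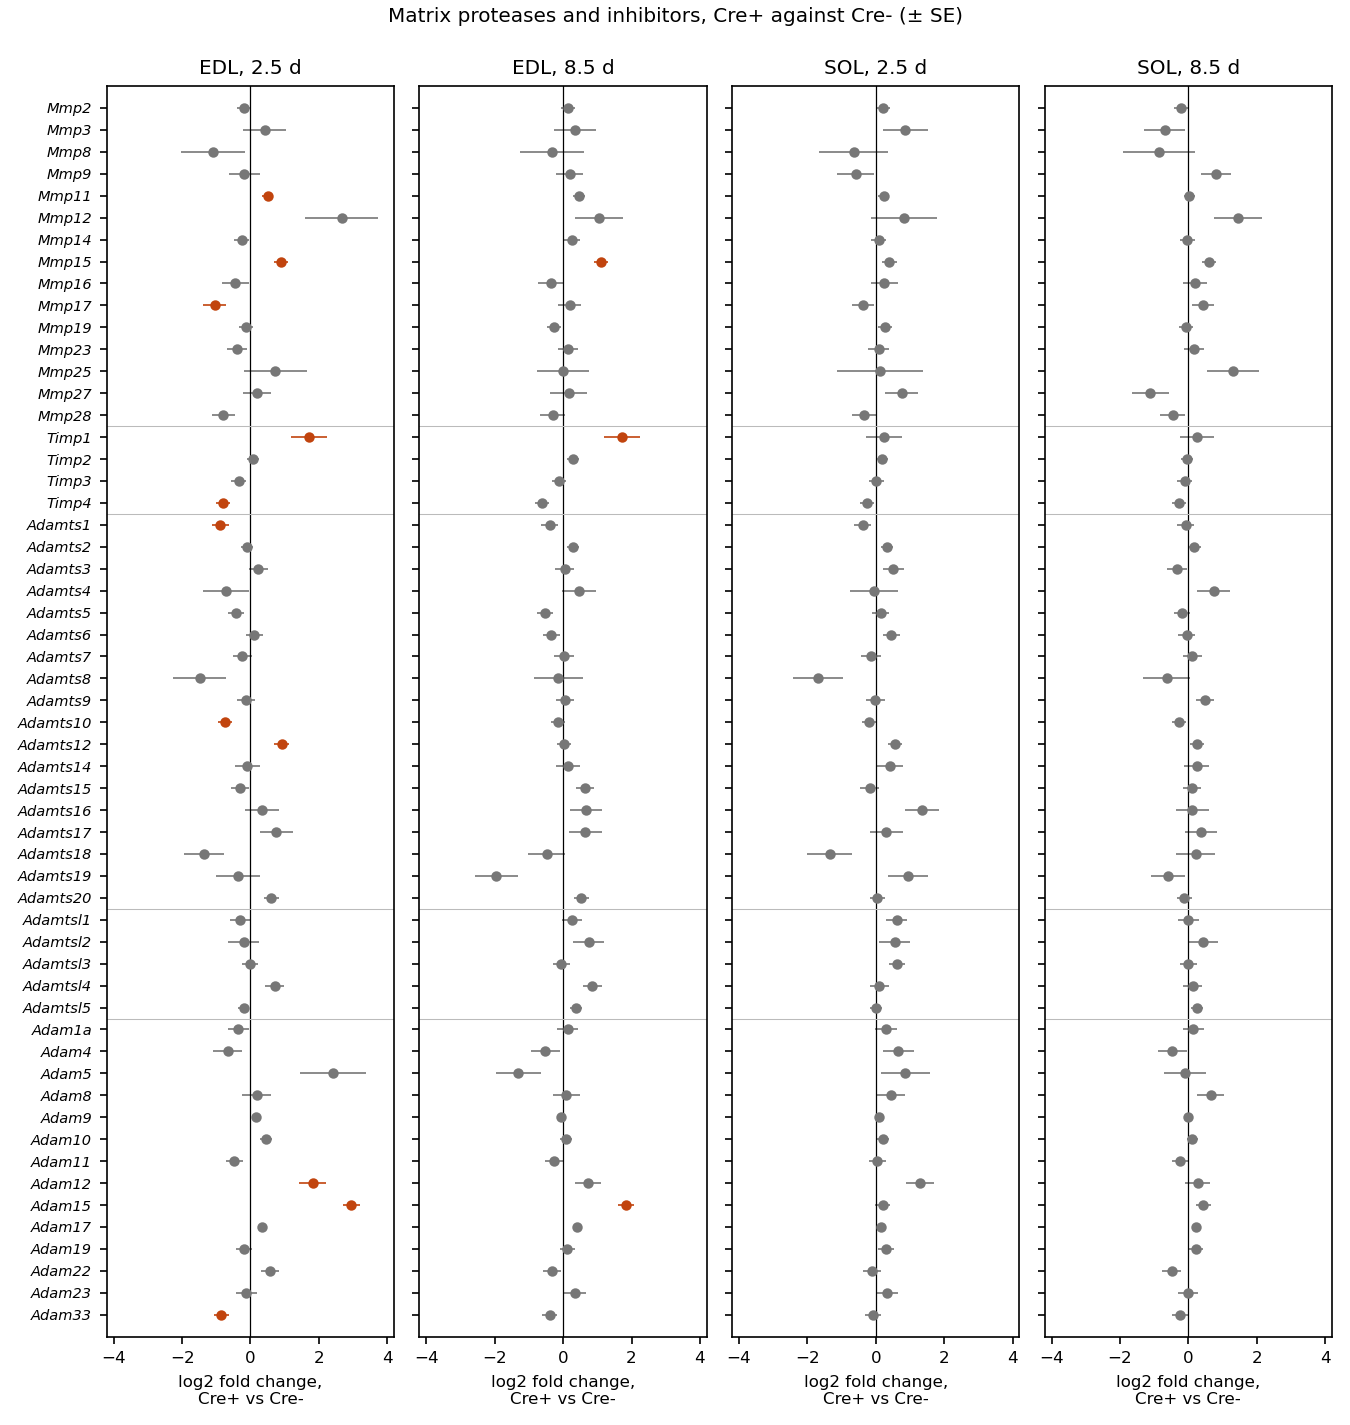
The log2 fold change between Cre+ and Cre- libraries is shown with its SE for each tested member except Adamts13 (0 counts in the Cre- EDL libraries of 2.5 days), in EDL and SOL at 2.5 and 8.5 days, 2 against 2 libraries each. Orange points were called and grey points were not; Adam15 stands farthest to the right in EDL at 2.5 days (2.95), and neither SOL panel holds an orange point.

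The 250 bases in front of the start of Adam15, Timp1 and Mmp15 are printed because these 3 genes were called higher at both time points. They come from RefSeq on GRCm38.p6, read 5′ to 3′ along the gene's own strand, and are chr3:89350029-89350278 on the minus strand for Adam15, chrX:20869916-20870165 on the plus strand for Timp1 and chr8:95352046-95352295 on the plus strand for Mmp15. Capitals mark each match to the motifs searched on both strands.
Adam15: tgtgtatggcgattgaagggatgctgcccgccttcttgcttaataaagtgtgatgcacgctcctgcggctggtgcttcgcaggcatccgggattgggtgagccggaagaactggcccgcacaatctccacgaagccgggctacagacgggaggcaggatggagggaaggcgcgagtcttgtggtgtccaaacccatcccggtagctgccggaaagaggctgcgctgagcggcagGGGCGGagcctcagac
Timp1: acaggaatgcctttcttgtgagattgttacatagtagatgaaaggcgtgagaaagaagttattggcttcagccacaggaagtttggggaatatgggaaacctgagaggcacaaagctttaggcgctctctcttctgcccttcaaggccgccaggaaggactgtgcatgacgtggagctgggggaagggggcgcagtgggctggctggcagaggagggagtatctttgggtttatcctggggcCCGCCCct
Mmp15: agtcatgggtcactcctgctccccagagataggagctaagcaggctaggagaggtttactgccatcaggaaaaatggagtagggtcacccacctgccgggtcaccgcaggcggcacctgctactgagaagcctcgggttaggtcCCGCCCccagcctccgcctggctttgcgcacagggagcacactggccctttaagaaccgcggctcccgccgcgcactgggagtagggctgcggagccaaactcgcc
Each window held 1 match, to the GC box GGGCGG or its reverse CCGCCC, which is bound by Sp and Klf factors. It began 16 bases before the start of Adam15, 8 bases before that of Timp1 and 106 bases before that of Mmp15. A GC box stood in 32.7% of all 32851 promoter windows of this length and in 24 of the 58 windows of members (41.4%), which belong to 53 of the 84 members. The part of this motif in the changes was not tested. The E-box CACGTG (6.02% of all windows), the AP-1 site TGAGTCA (4.46%), the octamer ATGCAAAT (1.6%), the CACCC box CACACCC (6.93%) and the Sox core CATTGT (10.7%) were not found in these windows, and no motif overlapped another.

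Adam15 encodes a membrane-anchored protease with a disintegrin domain, and it made the largest rise of the members apart from Adamts13, whose controls had no counts. At 2.5 days its level was 11.7 and 11.6 FPKM in the Cre- EDL libraries and 93.0 and 133 FPKM in the Cre+ EDL libraries. Every Cre+ library was thus far above both controls, and the fitted rise was 7.70-fold (log2 fold change 2.95 ± 0.24 SE, n = 2 per group, adjusted p = 1e-05 by edgeR). In Cre+ EDL muscle Adam15 thereby passed Timp2, which had a mean of 68.3 FPKM in the same libraries. At 8.5 days the level was 9.55 and 13.2 FPKM in Cre- and 58.6 and 33.7 FPKM in Cre+ EDL libraries, again without overlap, and the fitted rise was 3.55-fold (log2 fold change 1.83 ± 0.23 SE, adjusted p = 0.00029). In the Cre+ EDL libraries of 5.5 days Adam15 had 9.60 FPKM and, in the one with 27.7 FPKM of Pou5f1, 13.6 FPKM, while the controls had 7.70 and 6.97 FPKM. That difference was not called (log2 fold change 0.52 ± 0.23 SE, adjusted p = 0.552).

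In SOL, Adam15 was at 14.1 and 15.0 FPKM in Cre- and 19.8 and 17.2 FPKM in Cre+ libraries at 2.5 days, and neither this nor the 8.5 day difference was called (log2 fold change 0.20 ± 0.22 and 0.43 ± 0.22 SE). The difference of the changes itself was tested. At 2.5 days the change in EDL exceeded that in SOL by 2.75 ± 0.32 (SE) on the log2 scale (adjusted p = 0.00258), and Adam15 was the 1 member of 57 so called, with 4.25% of all genes called. At 8.5 days the excess was 1.40 ± 0.32 (SE) with adjusted p = 0.0833, and 0 members were called (0.592% of all genes, 1 member at an unadjusted p under 0.05, as were 11.2% of all genes, and 1 or 2 by DESeq2, depending on the libraries fitted). EDL and SOL libraries of the same number deviated together, and with the replicate number as a block Adam15 was called at 8.5 days too (log2 excess 1.38, adjusted p = 0.0332). The labels do not say whether libraries of the same number came from the same mouse.

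**Figure D2:**
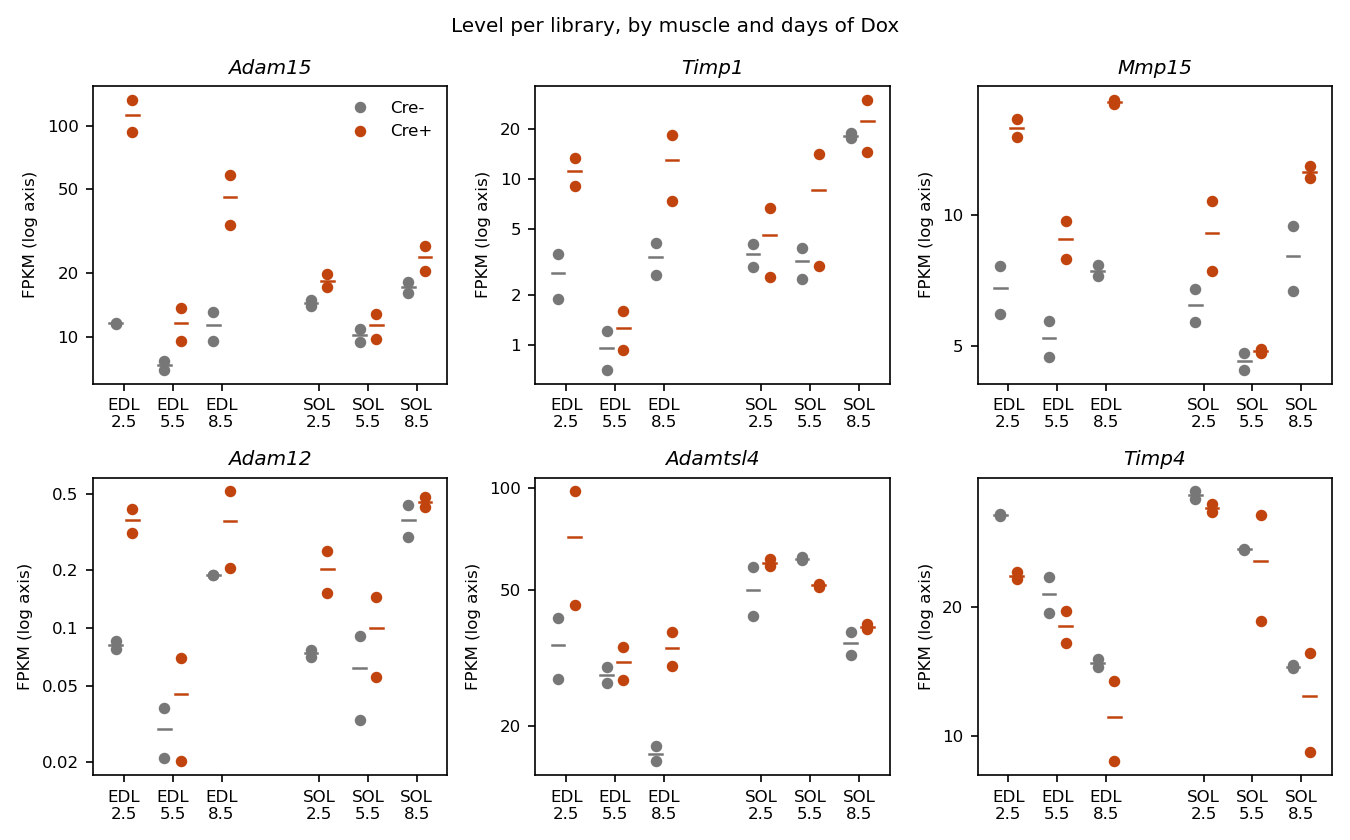
FPKM (log axis) of 6 members is plotted for each library by muscle and days of Dox, with Cre- in grey, Cre+ in orange and a bar at the mean of 2 libraries. The Adam15 libraries of Cre+ EDL lie between 33.7 and 133 at 2.5 and 8.5 days, above every other library, and Timp4 is lower at 8.5 than at 2.5 days in each of the 4 combinations of muscle and genotype.

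Among the inhibitors, Timp1 and Timp4 went in opposite directions in EDL at 2.5 days, and Timp2 and Timp3 did not pass the test. Timp1, a soluble inhibitor, was at 1.88 and 3.52 FPKM in Cre- and 9.01 and 13.3 FPKM in Cre+ EDL libraries (log2 fold change 1.70 ± 0.53 SE, adjusted p = 0.0298 by edgeR). At 8.5 days it was at 2.65 and 4.12 FPKM in Cre- and 18.5 and 7.38 FPKM in Cre+ libraries (log2 fold change 1.73 ± 0.52 SE, adjusted p = 0.0414). The groups did not overlap on either day, yet the call rested on single libraries. At 2.5 days it was lost without Cre- replicate 1 (log2 fold change 1.30, adjusted p = 0.198) or Cre+ replicate 2 (1.45, 0.164), and at 8.5 days without Cre- replicate 1 (1.43, 0.231), Cre- replicate 2 (2.10, 0.0625) or Cre+ replicate 1 (0.99, 0.376). Timp1 lies within the Syn1 gene on the other strand, and Syn1 had 0.0547 FPKM over the 24 libraries.

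Timp4, the inhibitor known for its expression in heart and skeletal muscle, was at 33.1 and 32.7 FPKM in Cre- and 24.2 and 23.4 FPKM in Cre+ EDL libraries at 2.5 days. It fell 1.74-fold (log2 fold change -0.80 ± 0.20 SE, adjusted p = 0.00943), a call that was lost without Cre+ replicate 2 (-0.73, adjusted p = 0.0823). At 8.5 days it was at 14.5 and 15.2 FPKM in Cre- and 13.5 and 8.72 FPKM in Cre+ libraries and was not called (-0.61 ± 0.20 SE, adjusted p = 0.0585). Timp2 had log2 fold changes of 0.07 ± 0.18 and 0.28 ± 0.18 (SE) and Timp3 of -0.35 ± 0.21 and -0.12 ± 0.21 (SE) at 2.5 and 8.5 days.

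Of the Mmp genes, 9 secreted and 6 membrane-bound members were tested. Mmp15, a membrane-type enzyme that can activate the Mmp2 proenzyme, was at 5.92 and 7.67 FPKM in Cre- and 15.1 and 16.7 FPKM in Cre+ EDL libraries at 2.5 days. It rose 1.86-fold there (log2 fold change 0.89 ± 0.21 SE, adjusted p = 0.00674), and 2.16-fold at 8.5 days (1.11 ± 0.21 SE, adjusted p = 0.00368), with 7.25 and 7.68 FPKM in Cre- and 18.0 and 18.5 FPKM in Cre+ libraries. The groups lay apart on both days, and the call of 2.5 days was lost without Cre- replicate 1 (0.70, adjusted p = 0.0785). Mmp11 (stromelysin 3), a secreted protease that furin activates inside the cell, was at 1.77 and 1.61 FPKM in Cre- and 2.96 and 3.06 FPKM in Cre+ libraries at 2.5 days, a rise of 1.42-fold that sits at the threshold (0.50 ± 0.17 SE, adjusted p = 0.0393). Mmp17, which is held in the membrane by a lipid anchor, was low throughout, at 0.299 and 0.349 FPKM in Cre- and 0.197 and 0.197 FPKM in Cre+ libraries, and fell 2.07-fold (-1.05 ± 0.33 SE, adjusted p = 0.0308). Without any one of the 4 libraries of the comparison neither Mmp11 nor Mmp17 was called.

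The gelatinases, which degrade type IV collagen, and Mmp14 were not called in EDL on either day. Mmp2 was at 35.8 and 32.0 FPKM in Cre- and 41.4 and 33.5 FPKM in Cre+ EDL libraries at 2.5 days, so the groups overlapped (log2 fold change -0.18 ± 0.20 SE, adjusted p = 0.534), and its value at 8.5 days was 0.14 ± 0.20 (SE). Mmp14, the membrane-type enzyme that activates Mmp2, had -0.25 ± 0.22 and 0.26 ± 0.22 (SE), and Mmp9 had -0.18 ± 0.46 and 0.19 ± 0.39 (SE).

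In the Adamts family 1 of 7 proteoglycanases fell, 0 of 3 procollagen N-proteinases were called, and of 9 others 2 rose and 1 fell in EDL at 2.5 days. Of all genes, 24% were called. The proteoglycanases Adamts20 and Adamts8 were called under some other settings only. DESeq2 called Adamts20 higher on the 16 libraries (0.63, adjusted p = 0.0292) but not on those of the comparison alone, where it called Adamts8 lower (-1.45, 0.000662). EdgeR called Adamts20 with all 24 libraries, no filter or total counts alone. Adamts12, which cleaves cartilage oligomeric matrix protein, was at 1.26 and 1.34 FPKM in Cre- and 2.51 and 3.66 FPKM in Cre+ libraries and rose 1.88-fold (log2 fold change 0.91 ± 0.21 SE, adjusted p = 0.00596). Adamts1, which cuts versican and aggrecan, was at 8.84 and 6.25 FPKM in Cre- and 5.93 and 4.27 FPKM in Cre+ libraries and fell 1.85-fold (-0.88 ± 0.25 SE, adjusted p = 0.0199). Adamts10, a binder of fibrillin, fell 1.68-fold (-0.75 ± 0.20 SE, adjusted p = 0.0142), although its FPKM values overlapped, with 10.6 and 6.81 in Cre- and 6.98 and 5.93 in Cre+ libraries. All 3 calls were lost without Cre- replicate 1 (log2 fold changes 0.84, -0.64 and -0.43, with adjusted p of 0.0531, 0.162 and 0.183) or without Cre+ replicate 2 (0.66, -0.63 and -0.59, with adjusted p of 0.0783, 0.195 and 0.14).

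Adamts13, the protease of von Willebrand factor, was chosen for mention after its values were seen. It had 0 and 0 counts in Cre- and 19 and 14 counts in Cre+ EDL libraries at 2.5 days. It passed the filter on low counts through these Cre+ libraries alone, with at most 3 counts in any other library of 2.5 or 8.5 days, so it had to differ, and without it 6 of 56 members rose and 5 fell (19.6%). Taken against the limit of 3 counts per library, its level was at least 4.26-fold higher on the TMM scale (5.33-fold by total counts). It was called by edgeR (adjusted p = 0.0201) and not by DESeq2, nor in edgeR without any one of the 4 libraries, and its level in the Cre+ libraries was 0.0873 and 0.0694 FPKM.

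At 8.5 days no Adamts gene passed the test in EDL in the main edgeR fit (0 of 19, and 0 of 5 Adamts-like genes). The fibrillin-binding Adamtsl4 came closest, with 15.7 and 17.4 FPKM in Cre- and 37.9 and 30.1 FPKM in Cre+ EDL libraries, which did not overlap (log2 fold change 0.85 ± 0.28 SE, adjusted p = 0.057). It was called by DESeq2 on the 16 libraries (0.85, adjusted p = 0.0166) and on the libraries of the comparison alone (0.86, 0.000514). EdgeR called it with all 24 libraries (adjusted p = 0.0288), no filter (0.031), at least 10 counts in every library (0.0496) or total counts alone (0.0295). It was not called with DESeq2 size factors in edgeR or the replicate number as a block. At 2.5 days Adamtsl4 was at 41.5 and 27.5 FPKM in Cre- and 45.3 and 98.0 FPKM in Cre+ libraries (0.71 ± 0.28 SE, adjusted p = 0.0732). DESeq2 called it then on the 16 libraries (0.74, adjusted p = 0.0327), but not on the libraries of the comparison alone. Adamts2, which removes the N-propeptide of procollagens, had -0.10 ± 0.18 and 0.29 ± 0.18 (SE) at 2.5 and 8.5 days, and the aggrecanase Adamts5 had -0.43 ± 0.24 and -0.52 ± 0.23 (SE).

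Of 8 listed Adam proteases that were tested, 2 rose and 1 fell in EDL at 2.5 days, and 3 tested members without a catalytic site were not called. The share of all genes called there was 24%. Adam12, which is known from developing and regenerating muscle, was low in every library, at 0.0858 and 0.0774 FPKM in Cre- and 0.312 and 0.416 FPKM in Cre+ EDL libraries. It rose 3.52-fold (log2 fold change 1.82 ± 0.40 SE, adjusted p = 0.0049) and kept the call without any 1 of the 4 libraries, as did Adam15. At 8.5 days Adam12 was at 0.188 and 0.189 FPKM in Cre- and 0.515 and 0.204 FPKM in Cre+ libraries and was not called (0.73 ± 0.38 SE, adjusted p = 0.217). Adam33, expressed in mesenchymal cells, was at 4.25 and 2.83 FPKM in Cre- and 2.60 and 2.27 FPKM in Cre+ libraries at 2.5 days and fell 1.82-fold (-0.86 ± 0.22 SE, adjusted p = 0.0129), a call lost without Cre- replicate 1 (-0.57, adjusted p = 0.145) or Cre+ replicate 2 (-0.72, 0.117).

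The 2 general sheddases moved little with TMM scaling. Adam17 was at 6.45 and 6.50 FPKM in Cre- and 9.69 and 11.1 FPKM in Cre+ EDL libraries at 2.5 days, and its adjusted p was under 0.05 on both days (0.0229 and 0.0185) while its log2 fold change stayed below 0.5 (0.35 ± 0.10 and 0.41 ± 0.10 SE). Adam10, the sheddase that cuts Notch and cadherins, had 0.46 ± 0.17 (SE, adjusted p = 0.0704) at 2.5 days and 0.08 ± 0.17 (SE) at 8.5 days, and Adam9, the most abundant of the family in control EDL, had 0.17 ± 0.12 and -0.05 ± 0.12 (SE). With libraries scaled by total counts alone, edgeR called Adam10 (0.79, adjusted p = 0.00603), Adam17 (0.69, 0.000974) and Adam9 (0.51, 0.00976) higher at 2.5 days. Adam17 was then called at 8.5 days too (0.59, adjusted p = 0.00573). Under that scaling the median over all genes was 0.28 at 2.5 days and 0.16 at 8.5 days.

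The counts of calls in EDL at 2.5 days depended on single libraries. The 12 calls became 3 without Cre- replicate 1 (Adam15, Adam12 and Timp4) and 4 without Cre+ replicate 2 (Adam15, Adam12, Mmp15 and Adamts20). When libraries were scaled by their total counts alone, the median over all genes (log2 fold change) moved from -0.05 to 0.28 at 2.5 days and from -0.02 to 0.16 at 8.5 days, and the members called were 15 higher and 0 lower at 2.5 days and 9 higher and 0 lower at 8.5 days. Under that scaling 27.4% of all genes were called higher and 3.97% lower at 2.5 days, and 12.7% and 3.53% at 8.5 days. The direction of each of the 12 named changes was the same under every scaling tried. Markers of other cells were set beside these changes: in EDL at 2.5 days 0 of 10 fibroblast genes, 0 of 8 macrophage genes, 3 of 8 endothelial genes (lower) and 5 of 11 myofibre genes (lower) were called. Of 6 smooth muscle and pericyte genes 1 rose and 2 fell, and no call fell on the 6 satellite cell, 6 tendon, 6 Schwann cell, 6 adipocyte, 4 erythroid and 3 neutrophil genes tested. With TMM scaling 24% of all genes were called in that comparison. The summed fibroblast genes spanned 8377 to 9771 CPM in Cre- and 7082 to 12720 in Cre+ libraries at 2.5 days, and 7727 to 9847 and 10760 to 15640 at 8.5 days, and the summed macrophage genes 86.3 to 114 and 98.2 to 130 at 2.5 days, and 165 to 168 and 185 to 257 at 8.5 days. Their part in the changes of the members was not tested.

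Genes that activate or restrain these proteases were read from a list of 36, of which 32 were tested. In EDL, 4 rose and 3 fell at 2.5 days, when 24% of all genes were called. At 8.5 days 3 rose and 2 fell, beside 14.1% of all genes called. The largest rises on both days were those of Tspan15, Tspan5 and Tspan17, tetraspanins of the group that escorts Adam10 to the cell surface. Tspan15 was at 3.21 and 3.79 FPKM in Cre- and 14.2 and 29.9 FPKM in Cre+ EDL libraries at 2.5 days (log2 fold change 2.31 ± 0.28 SE, adjusted p = 0.000131) and rose by 1.75 ± 0.28 (SE) at 8.5 days (adjusted p = 0.00148). Tspan5 rose by 2.16 ± 0.19 and 1.62 ± 0.18 (SE, log2) and Tspan17 by 1.68 ± 0.21 and 1.55 ± 0.21 (SE, log2), so that 3 partners of Adam10 were higher while Adam10 itself was not called with TMM scaling. Tspan14, of the same group, rose at 2.5 days (1.01 ± 0.22 SE, adjusted p = 0.00422) and was not called at 8.5 days (0.59 ± 0.22 SE, adjusted p = 0.0867). Tspan33, the other tested gene of the group, was not called on either day (0.34 ± 0.22 and 0.33 ± 0.22 SE), and Tspan10 was too low to be tested. Bsg (CD147, an inducer of Mmp expression) fell on both days (-0.78 ± 0.17 and -0.95 ± 0.17 SE), as did Rhbdf2, which carries Adam17 to the surface (-0.89 ± 0.19 and -0.70 ± 0.19 SE).

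**Figure D3:**
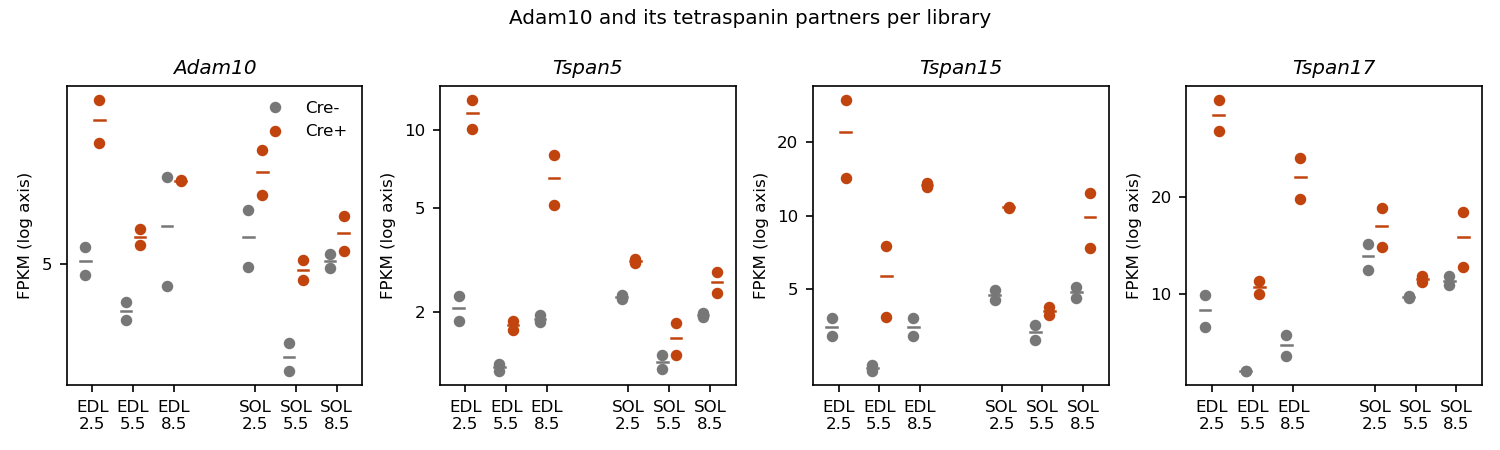
FPKM (log axis) of Adam10 and the tetraspanins Tspan5, Tspan15 and Tspan17 is plotted for each library by muscle and days of Dox, Cre- in grey and Cre+ in orange with bars at the mean of 2 libraries. Tspan15 in Cre+ EDL lies at 14.2 and 29.9 at 2.5 days against 3.21 and 3.79 in Cre-, whereas the Adam10 levels of all 24 libraries lie between 3.29 and 9.48.

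Of the 25 listed basal lamina components, 1 rose and 3 fell in EDL at 2.5 days, when 24% of all genes were called. At 8.5 days 3 rose and 2 fell, beside 14.1% of all genes called. Lamc1, the gamma chain shared by most laminins, rose on both days (log2 fold change 0.75 ± 0.14 and 0.61 ± 0.14 SE), while Lama5 (-1.26 ± 0.20 and -0.92 ± 0.20 SE) and Col4a3, a minor type IV collagen chain (-1.16 ± 0.24 and -0.82 ± 0.24 SE), fell. Of 23 other matrix substrates tested, 0 rose and 2 fell at 2.5 days, and 0 were called at 8.5 days.

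In SOL muscle no member was called at either time point. At 2.5 days the count was 0 of 57 (0.384% of all genes called by edgeR, 5 members against 13.4% of all genes at an unadjusted p under 0.05, and 0 by DESeq2), and at 8.5 days it was 0 of 57 (0.631% of all genes, 1 member against 6.6% of all genes at an unadjusted p under 0.05, and 0 by DESeq2). Timp1 was at 2.94 and 4.08 FPKM in Cre- and 6.65 and 2.55 FPKM in Cre+ SOL libraries at 2.5 days, so the groups overlapped (log2 fold change 0.25 ± 0.53 SE). Mmp15 had 0.40 ± 0.21 (SE) at 2.5 days and 0.60 ± 0.21 (SE, adjusted p = 0.475) at 8.5 days, and Adam12 had 1.30 ± 0.41 (SE, adjusted p = 0.199) at 2.5 days. For these 3 genes the changes in EDL and in SOL were not shown to differ, with excesses in EDL at 2.5 days of 1.45 ± 0.74, 0.50 ± 0.29 and 0.52 ± 0.58 (SE, log2) and adjusted p of 0.288, 0.359 and 0.646.

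At 5.5 days 0 of 58 members tested were called in EDL by edgeR (0.304% of all 15478 genes, 5 members against 8.44% of all genes at an unadjusted p under 0.05) and 0 of 58 in SOL (0% of all genes, 6 members against 3.86% of all genes at an unadjusted p under 0.05). By DESeq2 0 members were called on the 24 libraries, and 1 in EDL, Adamts8, on the 4 libraries of the comparison. Mmp15 in EDL was at 5.73 and 4.72 FPKM in Cre- and 7.92 and 9.72 FPKM in Cre+ libraries (log2 fold change 0.61 ± 0.20 SE, adjusted p = 0.288). Adamtsl5 was at 15.9 and 15.0 FPKM in Cre- and 24.4 and 23.1 FPKM in Cre+ EDL libraries (0.47 ± 0.15 SE, adjusted p = 0.284). Both pairs of groups lay apart without passing the test. Pou5f1 was low in the Cre+ SOL libraries of 5.5 days and uneven between the Cre+ EDL libraries, as given above. The absence of calls at 5.5 days therefore does not show that the response to OSKM was lost. The part of the OSKM level in it was not tested.

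The changes of 2.5 and 8.5 days were not shown to differ for any member. In EDL, 0 of 57 members and 0% of all genes were called for the difference of the 2 changes by edgeR (8 members against 9.56% of all genes at an unadjusted p under 0.05), and in SOL likewise 0 members and 0% of all genes (1 member against 2.62% at an unadjusted p under 0.05). DESeq2 called 0 members in both.

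Without OSKM, the share of members that differed between the fast and the slow muscle was no higher than that of all genes. In Cre- mice, over the 4 libraries per muscle of 2.5 and 8.5 days, 5 of 57 members were higher in EDL and 5 higher in SOL (17.5%, with 21.9% of all genes called, 10.8% higher in EDL and 11.1% higher in SOL). With libraries scaled by total counts alone these were 3 and 6 (8.18% and 13.8% of all genes). The days were also compared one by one in the same fit, an alternative chosen after seeing the data. Then 5 members were higher in EDL and 0 in SOL at 2.5 days, with 8.14% and 7.86% of all genes. At 8.5 days 2 were higher in EDL and 5 in SOL, with 8.65% and 9.53% of all genes. Timp2 was called on 2.5 days alone (0.60, adjusted p = 0.0399) and Mmp2 on 8.5 days alone (-0.76, adjusted p = 0.0182), neither of them over both days. Adamtsl1 (punctin) differed most: it was at 3.16, 3.40, 2.93 and 2.05 FPKM in EDL and 0.444, 0.446, 0.936 and 0.927 FPKM in SOL libraries. The muscles did not overlap, and the level was 4.73-fold higher in EDL (log2 difference 2.24 ± 0.22 SE, adjusted p = 7e-06). Mmp23, a membrane protease with an unusual cysteine-rich end, was 2.05-fold higher in EDL (1.03 ± 0.22 SE, adjusted p = 0.00302), with 3.56 to 6.67 FPKM against 2.18 to 3.78 FPKM, which overlapped. Adamtsl1 was called on each day (log2 difference 2.98 and 1.5), Mmp23 on 2.5 days alone (1.53 and 0.53).

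Of the 3 procollagen N-proteinases, 2 were higher in EDL over both days, and neither was called at 8.5 days. Adamts3 had a log2 difference of 1.06 ± 0.21 (SE, adjusted p = 0.00176), which was 2.18 at 2.5 days (0.647 and 0.664 FPKM in EDL, 0.182 and 0.129 FPKM in SOL) and -0.06 at 8.5 days (0.756 and 0.696 against 0.954 and 0.637 FPKM). Adamts2 had 0.55 ± 0.13 (SE, adjusted p = 0.0052), which was 0.82 at 2.5 days and 0.28 at 8.5 days, beside Adamts12 with 0.58 ± 0.15 (SE, adjusted p = 0.00954), a call lost without Cre- EDL replicate 1 of 8.5 days (0.46). With the replicate number as a block, Adamts14 was called as well (log2 difference -0.56, adjusted p = 0.0291).

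Higher in SOL were Adamts8, Timp1, Adamtsl4, Mmp11 and Adamts1. Mmp11 was at 1.43 to 1.92 FPKM in EDL and 2.48 to 3.10 FPKM in SOL libraries, without overlap (log2 difference -0.62 ± 0.12 SE, adjusted p = 0.00158). Adamts8, a proteoglycanase, was at 1.02 to 2.63 FPKM in EDL and at 6.65, 1.82, 21.3 and 5.53 FPKM in SOL libraries (-1.95 ± 0.51 SE, adjusted p = 0.0114). Its call was lost without Cre- SOL replicate 1 of 2.5 days (-1.32, adjusted p = 0.073) or of 8.5 days (-1.26, adjusted p = 0.067), the 2 libraries with the highest values. On 8.5 days alone Adamts8, Timp1, Adamtsl4 and Mmp11 were called, and at 2.5 days none of the 5 (log2 differences from -1.58 to -0.27). The SOL libraries of 8.5 days are those with the liver transcripts, whose part was not tested. Timp1 had -1.30 ± 0.38 (SE, adjusted p = 0.0182), Adamtsl4 -0.72 ± 0.20 (SE, adjusted p = 0.0133) and Adamts1 -0.54 ± 0.18 (SE, adjusted p = 0.0322). For Timp1 the difference was -0.27 at 2.5 days, when the muscles overlapped (1.88 and 3.52 FPKM in EDL, 2.94 and 4.08 FPKM in SOL), and -2.33 at 8.5 days (2.65 and 4.12 against 17.6 and 18.8 FPKM). These 3 calls were also lost without 1 library. Timp1 lost its call without Cre- EDL replicate 1 of 2.5 days (-1.10, adjusted p = 0.0769) or of 8.5 days (-1.15, 0.0707) or Cre- SOL replicate 2 of 2.5 days (-1.19, 0.0617). Adamtsl4 did so without Cre- EDL replicate 2 of 2.5 days (-0.60, 0.0602) or Cre- SOL replicate 1 of 2.5 days (-0.57, 0.0647). Adamts1 did so without 5 of the 8 libraries (log2 differences from -0.56 to -0.44).

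Other cells differed between these muscles too. Of the marker lists, 6 of 6 adipocyte genes and 4 of 6 satellite cell genes were higher in SOL, and 3 of 10 fibroblast genes and 4 of 6 Schwann cell genes were higher in EDL. Of all genes, 11.1% were higher in SOL and 10.8% in EDL. The summed fibroblast genes were 8377 to 9771 CPM in Cre- EDL and 3726 to 4275 in Cre- SOL libraries at 2.5 days, and 7727 to 9847 and 7589 to 9862 at 8.5 days. Their part in the differences between the muscles was not tested. In Cre+ mice 9 members were higher in EDL and 7 higher in SOL (28.1%, with 29.6% of all genes called, 15% higher in EDL and 14.6% higher in SOL).

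**Figure D4:**
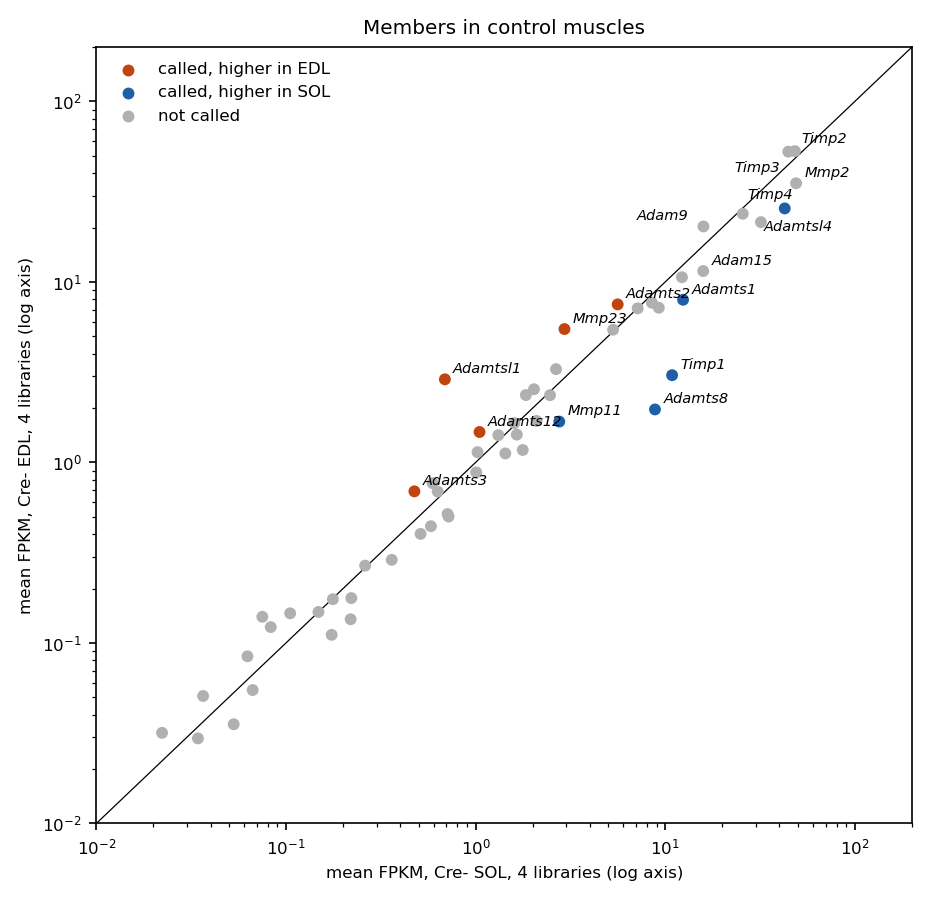
Mean FPKM of each tested member in Cre- EDL (vertical) is plotted against Cre- SOL (horizontal) on log axes, over the 4 libraries per muscle of 2.5 and 8.5 days, and the line marks equal levels. Orange points were called higher in EDL and blue points higher in SOL, 5 of each; Adamtsl1 lies farthest above the line among the orange points (2.88 against 0.688).

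Control muscles also changed with the time point. In Cre- SOL, 8 of 57 members were higher and 1 lower at 8.5 than at 2.5 days of Dox, 15.8% of the members where 3.63% of all genes were called (2.78% higher and 0.852% lower), and the median log2 difference was 0.56 over the members and 0.00 over all genes. The labels give no day of collection, so an effect of that day cannot be told apart from one of the days of Dox. Mmp2 was at 33.6 and 31.8 FPKM at 2.5 days and 71.3 and 59.2 FPKM at 8.5 days, with no overlap (log2 difference 0.97 ± 0.20 SE, adjusted p = 0.0232 by edgeR). Its activator Mmp14 was at 6.81 and 8.84 FPKM and then 18.9 and 14.5 FPKM (1.07 ± 0.22 SE, adjusted p = 0.0239). Timp1 was at 2.94 and 4.08 FPKM and then 17.6 and 18.8 FPKM (2.34 ± 0.53 SE, adjusted p = 0.0323).

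The aggrecanase Adamts4, near its limit of detection at 2.5 days, went from 0.0329 and 0.0503 FPKM to 0.472 and 0.328 FPKM (3.22 ± 0.61 SE, adjusted p = 0.0152). Adamts3 went from 0.182 and 0.129 FPKM to 0.954 and 0.637 FPKM (2.33 ± 0.31 SE, adjusted p = 0.00291). The Adam genes higher at 8.5 days were Adam12 (2.27 ± 0.41 SE, adjusted p = 0.0125), Adam19 (1.04 ± 0.23 SE, adjusted p = 0.0283) and Adam23, which has no catalytic site (1.30 ± 0.32 SE, adjusted p = 0.0417). Timp4 was the 1 member lower at 8.5 days, with 35.9 and 37.4 FPKM and then 14.4 and 14.7 FPKM (-1.37 ± 0.20 SE, adjusted p = 0.00428). Each of the called members moved in the same direction in the means of the Cre+ SOL libraries, 2 per day. Mmp14 went from 9.22 to 16.7 FPKM there, Timp1 from 4.60 to 22.2 FPKM and Timp4 from 34.2 to 12.4 FPKM. The change over time within Cre+ SOL was not tested.

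**Figure D5:**
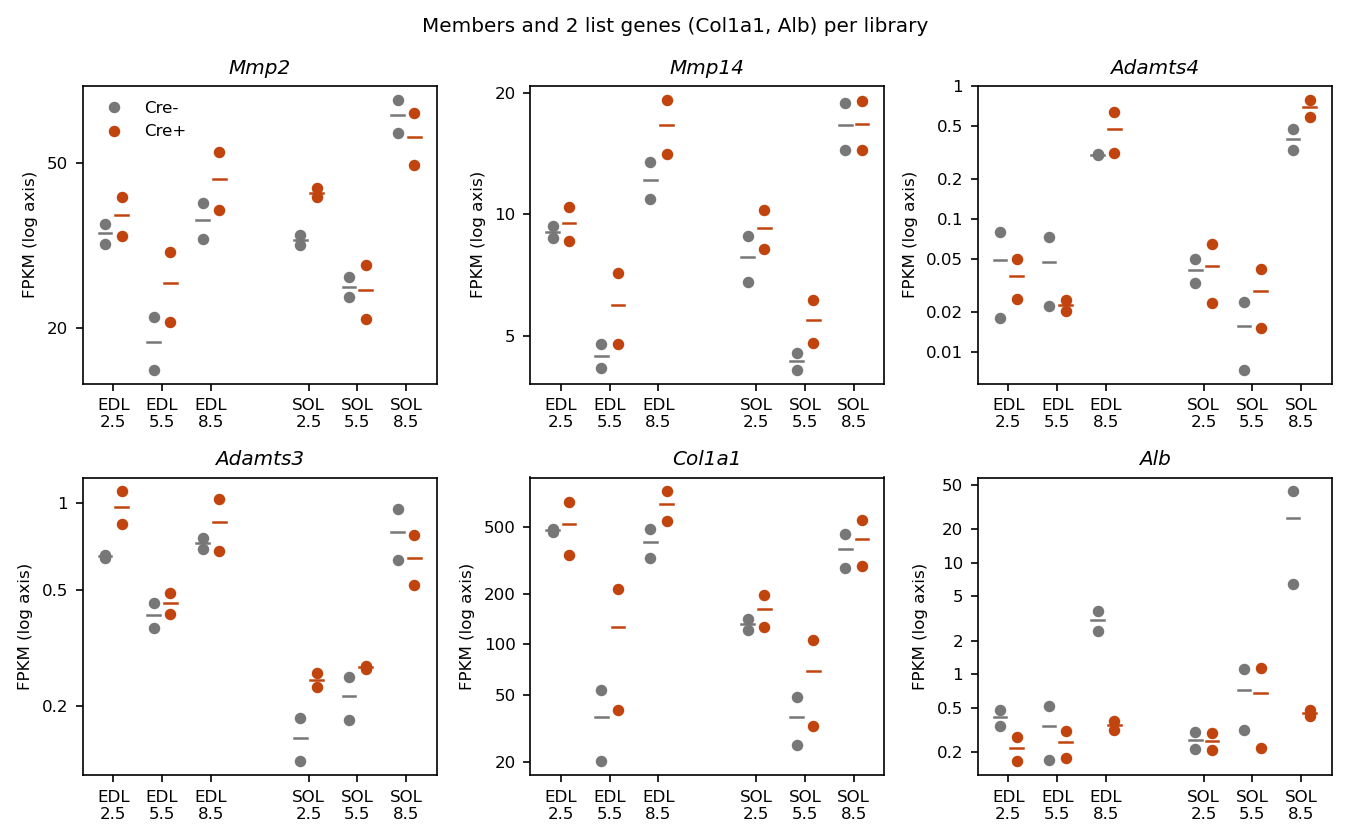
FPKM (log axis) of Mmp2, Mmp14, Adamts4 and Adamts3, and of Col1a1 (a fibroblast gene) and Alb (a liver gene), is plotted for each library by muscle and days of Dox, Cre- in grey and Cre+ in orange with bars at the mean of 2 libraries. In Cre- SOL, Mmp2 goes from 33.6 and 31.8 at 2.5 days to 71.3 and 59.2 at 8.5 days, and Alb from at most 0.304 to 6.40 and 43.8.

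Other lists moved with these members in Cre- SOL. Of 23 other matrix substrates 9 were higher at 8.5 days, as were 3 of 10 fibroblast genes, 2 of 6 tendon genes, 1 of 8 macrophage genes, 1 of 8 endothelial genes, 1 of 3 neutrophil genes tested, 4 of 25 basal lamina components, 6 of 32 genes of protease activation and control and 5 of 5 liver transcripts. Of all genes, 2.78% were higher. The summed fibroblast genes went from 3726 to 4275 CPM at 2.5 days to 7589 to 9862 at 8.5 days, the tendon genes from 644 to 771 to 1466 to 1969, and the liver transcripts from 0.750 to 0.780 to 23.2 to 134. The neutrophil gene S100a8 was at 0.134 and 0.252 FPKM at 2.5 days and at 8.70 and 0.621 FPKM at 8.5 days, while Ly6g, which defines these cells, was at most 0.0570 FPKM in any Cre- SOL library. Their part in the higher levels of the members was not tested. The 9 calls became 2 without replicate 1 of 2.5 days (Adamts3 and Timp4), 0 without replicate 2 of 2.5 days, 2 without replicate 1 of 8.5 days (Adamts3 and Timp4) and 6 without replicate 2 of 8.5 days, the library with 43.8 FPKM of Alb.

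In Cre- EDL, Timp4 was the 1 member called between the same time points (0.748% of all genes, 0.384% lower), with 33.1 and 32.7 FPKM at 2.5 days and 14.5 and 15.2 FPKM at 8.5 days (log2 difference -1.20 ± 0.20 SE, adjusted p = 0.0183). The call was lost without any one of the 4 libraries (differences from -1.25 to -1.16, adjusted p from 0.0526 to 0.129). At 5.5 days Timp4 lay between, at 23.6 and 19.4 FPKM in Cre- EDL and 27.3 and 27.4 FPKM in Cre- SOL. Mmp2 was at 32.9 and 40.0 FPKM in Cre- EDL at 8.5 days, which overlapped with 2.5 days, and Adamts4 had a log2 difference of 2.56 ± 0.59 (SE, adjusted p = 0.0711).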

How the data were processed

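RNA-seq libraries were made from EDL and SOL muscles of 2-month-old Cre+ and Cre- mice after 2.5 days, 5.5 days or 8.5 days of Dox, 2 per group and 24 in all. Per the labels and the study's methods, the authors made stranded single-end libraries from poly(A) RNA, aligned the reads to mm10 with STAR 2.5.3a and counted them over RefSeq exons with HOMER. Each deposited value is the whole-number read count of a gene in a library, without normalization. Whether the counting used strand is not given in the sources used here. Timp1, Timp3, Timp4, Adam17, Mmp19 and Mmp28, which overlap a gene on the other strand, may therefore hold some of its reads. The study calls the 2 samples of a group biologically independent, and an exact permutation test of 2 against 2 libraries cannot go below 0.333.

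Counts were tested in R 4.3.3 with edgeR 4.0.16 (glmQLFit and glmQLFTest, TMM, filterByExpr with a minimum count of 10, 1 mean per group), on the 16 libraries of 2.5 and 8.5 days (15372 genes) and, for 5.5 days, on all 24 (15478 genes). p-values were adjusted by Benjamini-Hochberg over all genes tested, and the SE is the log2 fold change divided by the square root of F. FPKM divides counts by exon length and total count, while log2 fold changes use TMM scaling, so the ratio of FPKM values can differ from the fold. The rule for named genes took the Timp genes and 9 common proteases, the called members of each comparison by size whose mean reached 0.1 FPKM, and the most abundant members of each family. The members and lists were chosen with earlier results of these data known. The gene lists also held markers of neutrophils, pericytes, adipocytes, erythroid and tendon cells. Mature protein sequences were not used here. The fits were tried on simulated counts in which 200 genes changed.

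As alternatives, DESeq2 1.42.0 was run on the libraries of the fit or of the comparison alone, and edgeR with DESeq2 size factors or library size alone, no filter or at least 10 counts in every library, another set of libraries, the replicate number as a block, or each library left out in turn, and, added after seeing the data, each day alone for EDL against SOL in Cre-. Replicate numbers were taken as pairing the EDL and SOL libraries for the block, since their deviations from the mean of each group correlated at 0.173 to 0.445 in 6 of 6 pairs. The labels do not say whether such libraries came from the same mouse. For Cre+ and Cre- libraries of 1 number the correlation was -0.169 to 0.0578, and for 2.5 and 8.5 days of 1 number -0.0419 to 0.248. These were not taken as paired, although the block joins them too. The range for the days overlaps that for the muscles, so these correlations do not establish the pairing of EDL and SOL. Between replicates of a group the mean chi-square per gene was 24.98 to 138.8, so no 2 libraries agreed within sampling noise.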

Additional observations from a re-analysis of the deposited data

Results flagged for a closer look

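The change of Adam15 with OSKM differed between the muscles at 2.5 days, as the test of the difference itself showed. The change in EDL exceeded that in SOL by 2.75 ± 0.32 (SE) on the log2 scale (adjusted p = 0.00258, edgeR). Both Cre+ EDL libraries, with 93.0 and 133 FPKM, lay above all 4 SOL libraries of that day, which ranged from 14.1 to 19.8 FPKM. Over the alternatives the excess was between 2.52 and 2.95, and the call held in all 8 other settings and without each of the 8 libraries. Pou5f1 was higher in Cre+ EDL than in Cre+ SOL libraries on that day, with 17.5 and 70.5 against 5.02 and 9.62 FPKM, and its part in the difference was not tested. Groups of 2 libraries are too small for a check of single outlying libraries.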

How the results depend on the processing

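Of 494 values of called members under another setting 394 stayed called and 1 turned its direction, that of Adamts3 between the muscles in Cre-, which was -0.06 on 8.5 days alone. Adam15 was called in EDL on both days under every alternative. The count of members called moved by more than 1.5 times as follows. For EDL against SOL in Cre- (10) it was 5 on 2.5 days alone, an alternative added after seeing the data. For Cre+ against Cre- in EDL at 8.5 days (3 members) it was 5 by DESeq2 on the same libraries and 9 with library size alone. In EDL at 5.5 days (0) it was 1 by DESeq2 on the libraries of the comparison and 1 with the 8 libraries of 5.5 days alone. For the excess of EDL over SOL at 8.5 days (0) it was 2 by DESeq2 on the libraries of the comparison, 1 by DESeq2 on the same libraries and 1 with no filter. Between 8.5 and 2.5 days in Cre- EDL (1) it was 4 by DESeq2 on either set of libraries and 4 with no filter, and in Cre- SOL (9) it was 14 by DESeq2 on the libraries of the comparison. Leaving out 1 library gave 3 to 12 calls in EDL at 2.5 days, 2 to 5 in EDL at 8.5 days, 1 to 4 for the excess in EDL at 2.5 days (4 without Cre+ EDL replicate 1), 0 to 1 for that at 8.5 days, 0 to 0 in Cre- EDL over time, 0 to 6 in Cre- SOL over time, 8 to 13 for EDL against SOL in Cre- and 12 to 16 in Cre+.

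The replicate number as a block joins the libraries of 1 number within each comparison. Joined across the muscles in this way, the excess of EDL over SOL at 8.5 days held 1 member, Adam15. In the counts that follow the block joins genotypes or days of 1 number, which were not taken as paired above. The block left 11 members in EDL at 2.5 days (Mmp11 and Mmp17 lost, Adam22 gained), 2 in EDL at 8.5 days (Timp1 lost) and 11 in Cre- SOL over time (Adam23 and Timp1 lost, Adamts2, Adamts8, Adamtsl2 and Timp2 gained), and the counts for SOL and for 5.5 days stayed at 0. In EDL at 2.5 days library size alone also ended the calls of the 5 members that fell, and Timp1 lost its call on both days in a fit of all 24 libraries. Depth limits the 27 members that were not tested, which reached at most 16 counts. The cause of these differences was not tested.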
